A study of Mus musculus with 4 samples.

Results

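The molecular chaperone genes of the embryonic mouse brain were compared between wild-type embryos and embryos with a macroH2A deletion. The set held every protein-coding gene whose symbol begins with Hsp, Dnaj or Cct and a number or class letter of the classical heat shock and chaperone families, plus Tcp1. It came to 74 genes of the 19150 listed for all 4 libraries (15017 of them protein-coding). By family these were 3 HSP90 genes, 13 HSP70 genes, 1 HSP110 gene, the mitochondrial HSP60 and HSP10 genes, 8 genes of the CCT chaperonin, 5 small heat shock protein genes and 42 J-domain genes (4 of class A, 12 of class B and 26 of class C). The symbol rule left out Cct6a, which the tables list with another biotype, and the HSP kin Hyou1 and Trap1. The libraries were of total RNA from brain of E13.5 embryos of the C57BL/6 strain, 2 of genotype WT (wild type, numbered 6 and 8) and 2 of genotype KO (numbered 2 and 4). The title of the series speaks of a deletion of macroH2A, a variant of histone H2A with a large extra domain that is common in silent chromatin. Which macroH2A gene was deleted, whether all cells lost it and whether the embryos were of separate litters is not stated in the labels. Any p-value below therefore reflects the scatter among these samples, which may be technical.

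Chaperones bind proteins that are not yet folded or have lost their fold. HSP70 proteins hold short stretches of unfolded chain in a cycle driven by ATP, J-domain proteins (also called HSP40) bring clients and start that cycle, and HSP110 proteins reset it by exchanging the nucleotide. HSP90 takes over clients near their final fold, among them kinases and steroid receptors, while the ring-shaped CCT chaperonin encloses newly made actin and tubulin. Growing neurons need much tubulin, and neural tissue carries high levels of cytosolic chaperones without any heat stress. The inducible members are switched on by heat shock factor 1, which binds repeats of the letters nGAAn in alternating orientation, and those of the endoplasmic reticulum (ER) by the unfolded protein response through the ER stress element.

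Both elements were looked for in the RefSeq promoter windows (GRCm38.p6, 250 bases before to 50 after a transcription start), which matched 61 of the 74 genes. The 13 genes without a window, among them Hsp90aa1, Hsp90ab1, Hspa8 and Hspa9, were not searched. A heat shock element, searched on either strand as GAA, TTC and GAA, or as TTC, GAA and TTC, with 2 free bases between the parts, was found in the windows of 4 of the 61 genes (6.56%), against 0.662% of all genes in the promoter set. An ER stress element, searched on either strand as CCAAT and, after 9 free bases, CCACG, was found for 3 of the 61 (4.92%), against 0.137% of all genes. A match describes letters only and not a bound site. The 7 genes with a match are shown as the members whose windows carry these letters, with the matching letters in capitals, 5′ to 3′ on the strand of the gene. The heat shock elements are these, Hspd1 and Hspe1 being divergent neighbours that share 1 stretch of DNA, read here on opposite strands (chr1:55088053-55088082, minus for Hspd1 and plus for Hspe1). The Dnajb6 stretch lies at chr5:29735844-29735873, plus strand, and the Hsph1 stretch at chr5:149636279-149636308, minus strand, just after the start.
Hspd1: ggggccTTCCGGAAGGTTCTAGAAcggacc
Hspe1: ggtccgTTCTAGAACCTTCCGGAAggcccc
Dnajb6: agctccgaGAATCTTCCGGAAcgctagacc
Hsph1: gctgcagaTTCTGGAAAGTTCtcctcagta
The ER stress elements lie in the windows of Hspa5 (chr2:34772020-34772049, plus strand), Dnajc3 (chr14:118937787-118937885, plus strand) and Hsp90b1 (chr10:86705510-86705694, minus strand, with a match in each orientation).
Hspa5: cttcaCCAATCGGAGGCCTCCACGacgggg
Dnajc3: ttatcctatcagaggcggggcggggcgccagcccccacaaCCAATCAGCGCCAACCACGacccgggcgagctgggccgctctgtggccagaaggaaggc
Hsp90b1: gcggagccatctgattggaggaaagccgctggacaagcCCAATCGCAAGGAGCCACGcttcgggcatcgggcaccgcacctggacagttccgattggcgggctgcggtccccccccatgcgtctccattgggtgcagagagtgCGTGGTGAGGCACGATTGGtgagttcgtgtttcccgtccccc

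Depth was between 16470090 and 18136745 reads per library. H2afy, the gene of macroH2A1, had 1368 and 1267 reads in the KO libraries against 5538 and 5593 in the WT libraries, and it was the only gene of 15708 tested that passed the threshold (log2 fold change KO over WT -2.22, SE 0.10, adjusted p = 0.00167, edgeR quasi-likelihood test with Benjamini-Hochberg adjustment). H2afy2, the gene of macroH2A2, stood at a log2 fold change of 0.08, so the KO libraries still held transcripts of both genes. All 6 neuronal and all 6 neural progenitor markers looked at were read in all libraries, with summed levels of 5849 to 6151 CPM (reads scaled to the size of the library) for the neurons. Summed erythroid markers were at 643.1 to 671.7 CPM in KO and 513.4 to 1105 CPM in WT, and microglial markers at 24.13 to 25.81 CPM in KO and 28.02 to 32.88 CPM in WT. The part of these other cells in the values below was not tested. In bulk tissue, fewer cells of a type and less RNA per cell cannot be told apart.

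Chaperone transcripts made up 11770 to 12023 CPM of each library, and a pair of cytosolic genes held the largest part of it. Per length, Hsp90ab1, the constitutive cytosolic HSP90, had the highest level, at 871 CPM per kb of exon, followed by the constitutive HSP70 Hspa8 at 517. Hsp90aa1, the cytosolic HSP90 that heat also induces, was at 152 CPM per kb. The 7 tested CCT subunits lay between 41.65 (Tcp1) and 163.2 (Cct2) CPM per kb of exon, a spread that depends on the length used: per kb of the longest transcript the subunits ran from 61.3 (Tcp1) to 223 (Cct5). Mitochondrial Hspe1 (94.2) and Hspd1 (88.5) were close to each other per kb of exon, but not per kb of the longest transcript (144 and 96.5). Hspa5, the HSP70 of the ER known as BiP, was at 59.7 CPM per kb of exon. Among J-domain genes the highest levels per kb of exon were those of Dnajc8 (61.8), Dnajc9 (60.5), Dnaja2 (51.7) and Dnaja1 (51.0). Dnajc8 is tied to splicing, Dnajc9 also binds histones, and Dnaja2 and Dnaja1 are the main partners of cytosolic HSP70. Per kb of the longest transcript Dnajc9 (88.2), Dnajc8 (86.0), Dnaja1 (78.3) and Dnajc7 (72.0) were highest, and Dnaja2 was at 52.7. At the other end stood the strictly inducible HSP70 copies: Hspa1a had 6 to 14 reads in the KO libraries and 5 to 13 in the WT libraries, and Hspa1b had 12 to 21 and 19 to 21. The stress-inducible copies were thus near the bottom of the family in all 4 libraries, while the constitutive Hspa8 was at its top. Other HSP70 genes were low too, among them Hspa1l (0.269 CPM per kb), Hspa2 (1.03) and Hspa12b (1.79). Hspa1a and Hspa1b are near-identical copies, and how reads that match both were counted is not given, so their low levels are uncertain.

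**Figure D1:**
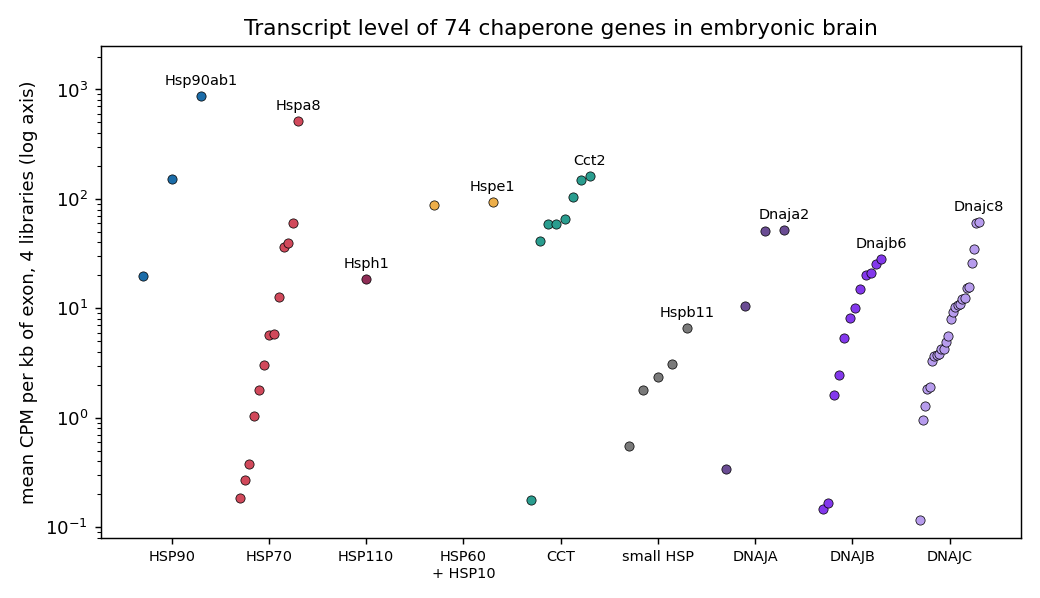
Mean level of each chaperone gene over the 4 libraries, in CPM per kb of exon on a log axis, with 1 point per gene, sorted by level within each family. Hsp90ab1 (871) and Hspa8 (517) stand above all others, and the HSP70 genes run from 0.185 (Hspa1a) to 517.

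No chaperone gene passed the test between the genotypes. Of the 69 genes with enough reads to be tested, 0 were called by edgeR's quasi-likelihood test with Benjamini-Hochberg adjustment over all 15708 genes, against a background of 0.00637% of all genes called. The smallest adjusted p among the chaperones was 0.743, and DESeq2 (all genes 0.0209%) and limma-voom called 0 as well. At an unadjusted p under 0.05 stood 6 of the 69 (8.70%, against 4.7% of all genes): Tcp1, Dnajb9, Dnajc13, Hspa2 and Hsp90aa1 with more reads in KO, and Dnajc30 with fewer. The differences were small. Log2 fold changes ran from -0.58 to 0.77 with a median of 0.03 (all genes -0.01), and 40 were above 0 (57.97%, all genes 48.9%) and 29 below. The data bounded many of them tightly: for 51 of the 69 the 95% interval lay within 1.5-fold in either direction (60.05% of all genes), and for the 25 chaperone genes at 100 CPM or more the interval reached a median of 0.21 to either side on the log2 scale. The 5 genes under the filter had at most 9 reads in any library: Cct6b and Dnajb13, at home in testis and cilia, Dnajb7, Dnajc22 and Hspb9.

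The order of the libraries was described as well. Both KO libraries exceeded both WT libraries for 26 of the 69 genes (37.7%), against 20.1% of all genes tested, and below both for 8 (11.6%), against 19.4%. The remaining 35 overlapped. Among the 25 genes at 100 CPM or more, 13 had both KO libraries above and 1 (Hsp90ab1) had both below, where all genes of that level gave 18.1% and 30.5%. The libraries were not equal in this: WT8 held the lowest value for 30 of the 69 genes (43.5%, all genes 34.0%), and KO2 held the highest for 20 (28.99%, all genes 18.4%). The base composition of the transcripts went with the same order. Across the 69 genes the log2 fold change had a Spearman rho of -0.53 with GC content and across 15687 genes -0.44, a description over genes that share the 4 libraries. Of the 35 chaperone genes at or below their median GC of 47.22%, 25 lay above 0 (median 0.12), and of the 34 genes above it 15 did (median -0.04). With each library's trend with GC content and length taken out, a step chosen after seeing the data, both KO libraries exceeded both WT libraries for 13 genes (18.8%, all genes 13.9%) and below for 16 (23.2%, all genes 19.6%), and 33 of the 69 were above 0. Among the genes at 100 CPM or more the counts were then 8 of 25 above (all genes 10.6%) and 9 of 25 below (29.8%). Short transcripts stood high in WT8. Of the 6 tested chaperone genes with a longest transcript under 1500 bases 1 lay above 0, and their median in WT8 was 0.21 above the mean of the libraries on the log2 scale (0.16 for all genes that short).

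**Figure D2:**
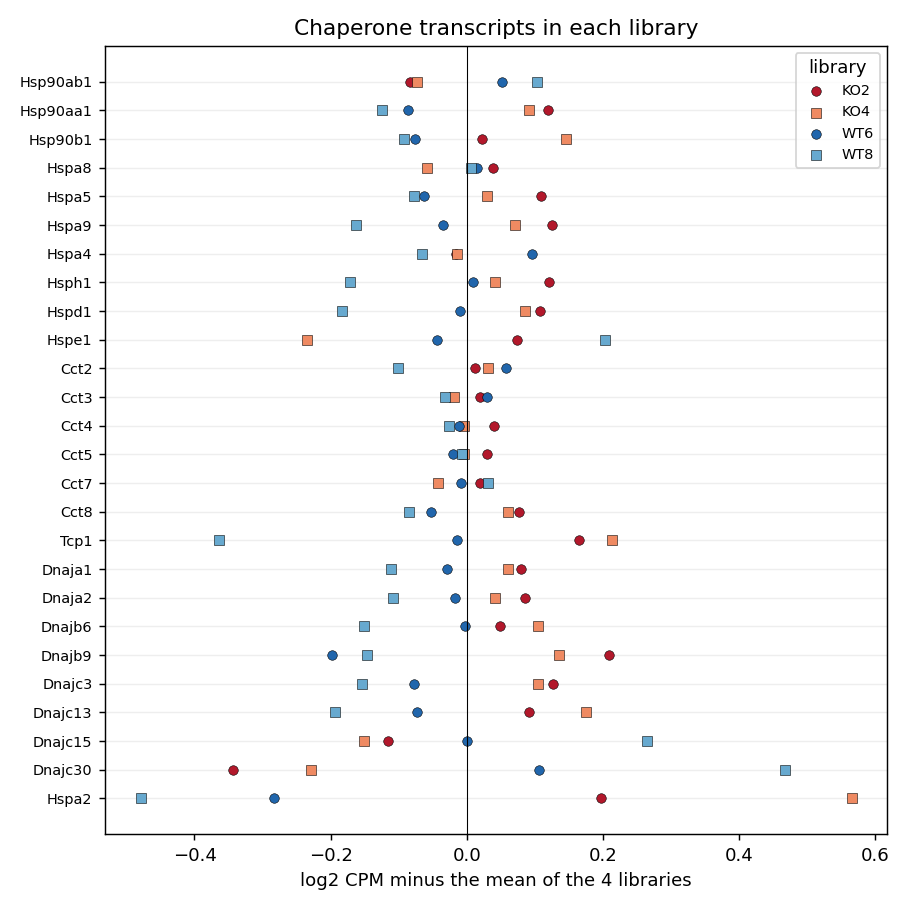
Values of 26 chaperone genes in each library, as log2 CPM minus the mean of the 4 libraries, with 1 point per library (red KO, blue WT). The WT8 points lie lowest for Tcp1, Hspd1 and Hsph1 and highest for Hspe1, Dnajc15 and Dnajc30.

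**Figure D3:**
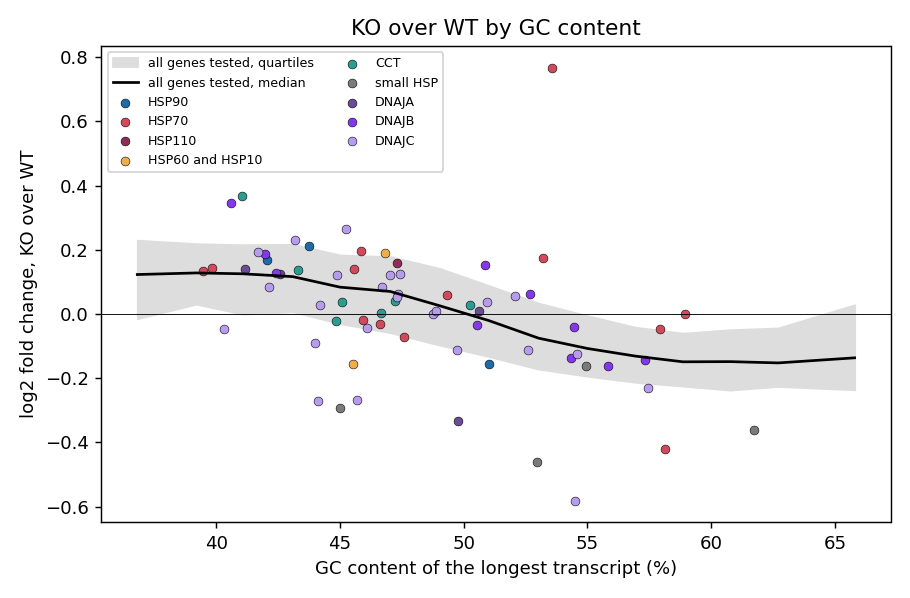
Log2 fold change KO over WT of the 69 tested chaperone genes against the GC content of the longest transcript in percent, coloured by family, over the median (line) and quartiles (band) of all genes tested. The chaperone genes poor in GC lie mostly above 0 (rho -0.53), and the line of all genes runs down in the same way.

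The cytosolic HSP90 genes differed in the order of their libraries. Hsp90aa1 (chr12:110690605-110702728, minus strand) stood at 647 and 635 CPM in the KO libraries and at 561 and 546 CPM in the WT libraries (means 641 ± 8.50 and 553 ± 10.4 SD, n = 2 each). Its log2 fold change was 0.21 (SE 0.085, 95% interval 0.009 to 0.413, adjusted p = 0.743 in edgeR's test over all genes). Both KO libraries were high and the groups did not overlap. Hsp90ab1 (chr17:45567775-45573271, minus strand) went the other way, with 2464 and 2480 CPM in KO and 2705 and 2802 CPM in WT (2472 ± 11.8 and 2754 ± 68.7 SD, n = 2 each). That is a log2 fold change of -0.16 (interval -0.356 to 0.045), also without overlap. Within a library, where depth cancels, Hsp90aa1 was 0.262 and 0.256 times Hsp90ab1 in the KO libraries and 0.207 and 0.195 times in the WT libraries. The KO mean was 0.259 ± 0.00467 and the WT mean 0.201 ± 0.00879 (SD, n = 2 each). The gap between the genotypes in this ratio, which was formed after the values of both genes were known, was larger than the spread inside either of them, and no test was made of it, since an exact permutation of 2 against 2 libraries cannot reach the threshold. Hsp90aa1 has the lower GC content of the pair (43.7% against 51.0%), and with the trend of GC content and length taken out its log2 fold change was 0.11 and that of Hsp90ab1 -0.14. A processed HSP90-alpha copy, Gm12346, was counted 150 and 134 times in KO against 84 and 81 times in WT, far below the 8721 reads or more of Hsp90aa1. Hsp90b1, the HSP90 of the ER, had 80.8 and 88.0 CPM in KO and 75.5 and 74.6 in WT (log2 fold change 0.17).

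**Figure D4:**
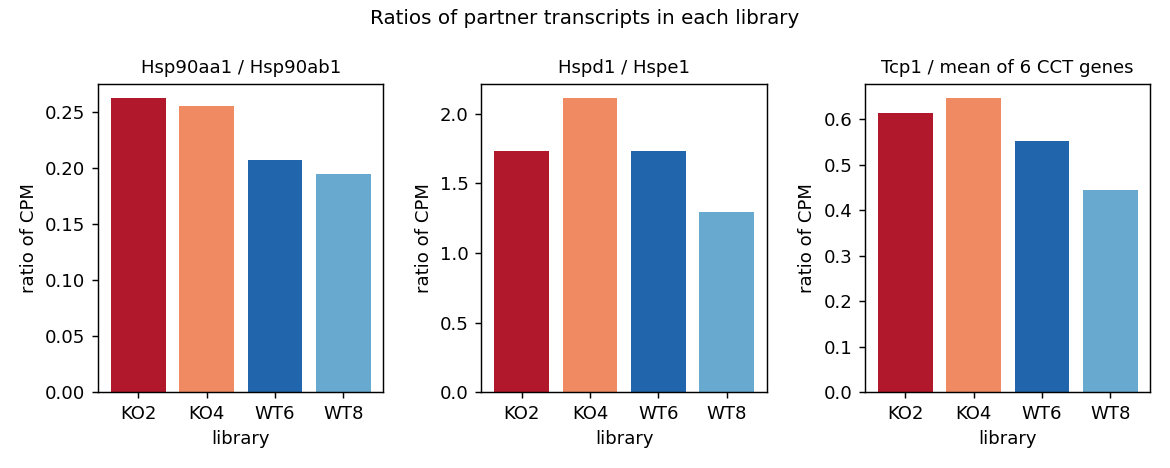
Ratios of chaperone partners within each library, from CPM: Hsp90aa1 over Hsp90ab1, Hspd1 over Hspe1, and Tcp1 over the mean of the 6 other tested CCT subunits; each bar is a library. The first ratio is 0.256 or more in both KO libraries and 0.207 or less in both WT libraries, while in the second KO2 and WT6 are both at 1.73.

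The most abundant HSP70 gene was close between the genotypes. Hspa8 had 2283 and 2134 CPM in KO and 2246 and 2232 CPM in WT, so that the WT libraries lay between the KO ones (log2 fold change -0.02, interval -0.228 to 0.188). Its share of all chaperone CPM was 19.0%, 18.1%, 18.8% and 19.0% in KO2, KO4, WT6 and WT8. A processed copy of it, Gm8355, had between 115 and 215 reads. Hspa4, an HSP110-like exchange factor, overlapped too, at 197 and 198 CPM in KO and 213 and 190 in WT. Hspa5 had 272 and 258 CPM in KO and 242 and 239 in WT (0.14, interval -0.061 to 0.340). Hspa9, mortalin, which pulls proteins into the mitochondrion, had 186 and 179 against 166 and 152 (0.20, interval -0.016 to 0.406). Neither interval excluded 0. Hsph1, the HSP110 gene with the heat shock element shown above, was at 147 and 139 CPM in KO and 136 and 120 in WT (0.16). Smaller differences were seen for Hspa4l (0.13), for Hspa13 (0.14), an HSP70 of the ER, and for Hspa14 (-0.07), which acts at the ribosome. Hspa12a stood at 0.06, with its lowest value, 44.7 CPM, in WT8 and its highest, 58.8 CPM, in WT6. Hspa12b, at 83 to 137 reads, overlapped and stood at -0.05.

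The largest positive value belonged to Hspa2, an HSP70 best known from male germ cells. It was read 55 and 71 times in the KO libraries and 37 and 30 times in the WT libraries, or 3.0 and 3.88 CPM against 2.15 and 1.88 (3.44 ± 0.618 and 2.01 ± 0.192 SD, n = 2 each). Its log2 fold change was 0.77 with a wide interval of 0.104 to 1.431 (adjusted p = 0.743, edgeR), and it stayed at 0.83 with the GC and length trend taken out. At so few reads the depth sets the width. The inducible copies Hspa1a (log2 fold change near 0, interval -1.79 to 1.79) and Hspa1b (-0.42, interval -1.43 to 0.59) lie beside Hspa1l (0.17). Hspa1a and Hspa1b are near-identical copies, and how reads that match both were counted is not given, so their values are uncertain. A difference of 1 log2 unit lies inside the interval of Hspa1a in either direction and was not detectable at this depth.

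Hspd1 and Hspe1 code for HSP60 and its lid HSP10 and lie head to head. The stretch printed above lies before the RefSeq starts of both genes, which set the windows. By the gene positions given next, it lies before Hspe1 but inside Hspd1, in an annotated exon. Hspd1 (chr1:55077835-55088243, minus strand) had 251.2 and 247 CPM in the KO libraries and 231 and 205 CPM in the WT libraries, without overlap (249 ± 2.80 and 218 ± 18.4 SD, n = 2 each; log2 fold change 0.19, interval -0.033 to 0.415). Hspe1 (chr1:55088132-55091307, plus strand) had 145 and 117 CPM in KO and 134 and 159 CPM in WT, and its groups overlapped (-0.16, interval -0.476 to 0.161). WT8 was thus the lowest library for Hspd1 and the highest for Hspe1. The ratio of Hspd1 to Hspe1 was 1.73, 2.11, 1.73 and 1.29 in KO2, KO4, WT6 and WT8, so that the partners did not keep a fixed ratio even between libraries of 1 genotype. Their transcripts differ in length (2423 and 964 bases for the longest of each), and short transcripts as a class were high in WT8. Their exons overlap by 112 bases on opposite strands. The sources used here do not give the use of strand in counting.

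The CCT chaperonin needs 8 kinds of subunit in equal numbers, and its transcripts were mostly close between the genotypes. Of 7 tested genes 6 lay above 0, with a median of 0.04. Cct3 had 383 and 373 CPM in KO and 385 and 369 in WT (0.002, interval -0.201 to 0.204), Cct5 had 422 and 412 against 407 and 411 (0.03), and Cct7 had 452 and 433 against 444 and 456 (-0.02). Cct2 (0.04) and Cct4 (0.04) were as close. None of these 5 log2 fold changes reached 0.05 in either direction, and Cct6a, left out by the rule, stood at 0.02. Cct8 had 339 and 335 CPM in KO and 310 and 303 in WT, without overlap (0.14).

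Tcp1, the alpha subunit, stood farthest from 0. ENSMUSG00000068039 (chr17:12915701-12925067, plus strand) was read 4255 and 4396 times in the KO libraries and 3526 and 2568 times in the WT libraries. In CPM that was 232 and 240 against 205 and 161 (236 ± 5.49 and 183 ± 31.2 SD, n = 2 each). The KO libraries lay close together, and the WT libraries lay below them and far apart. The log2 fold change was 0.37 (SE 0.125, interval 0.070 to 0.666, adjusted p = 0.743 in edgeR's test), the largest of any chaperone gene at 100 CPM or more. WT8 carried much of it: without that library the log2 fold change was 0.21, and without WT6 it was 0.55. Relative to the mean of the 6 other tested subunits, the Tcp1 level was 0.613 and 0.646 in KO2 and KO4 and 0.552 and 0.444 in WT6 and WT8, so both KO libraries were above both WT libraries in this ratio too. Tcp1 has a GC content of 41.1%, and with the trend of GC content and length taken out the log2 fold change was 0.25. On the opposite strand its exons share 571 bases with Acat3 and 141 bases with Mrpl18, and their part in the count was not tested.

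Small heat shock proteins are ATP-independent holders that keep damaged proteins from clumping, and their transcripts were few. All 4 tested genes grouped here by an Hspb symbol lay below 0, with a median of -0.33, and all 4 overlapped between the genotypes. The values rested on single libraries: without KO4 the log2 fold changes were -0.02 (Hspb8), -0.04 (Hspb11), -0.07 (Hspb6) and -0.12 (Hspb1), without WT8 that of Hspb11 was -0.015, and without WT6 that of Hspb6 was 0.02. Hspb1 was read 35 and 24 times in KO and 22 and 46 times in WT (-0.36). Hspb8, partner of the autophagy factor Bag3, had 97 and 46 reads against 106 and 73 (-0.46). Hspb6 had 130 and 114 against 143 and 105 (-0.16). Hspb11, in this group by its symbol, serves transport along cilia and had 269 and 183 against 215 and 284 (-0.29). For each of the 4 genes the libraries of 1 genotype differed by more than the means of the genotypes did. Without WT8 the log2 fold change of Hspb1 was 0.33. No direction can be given for any of the 4 genes.

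**Figure D5:**
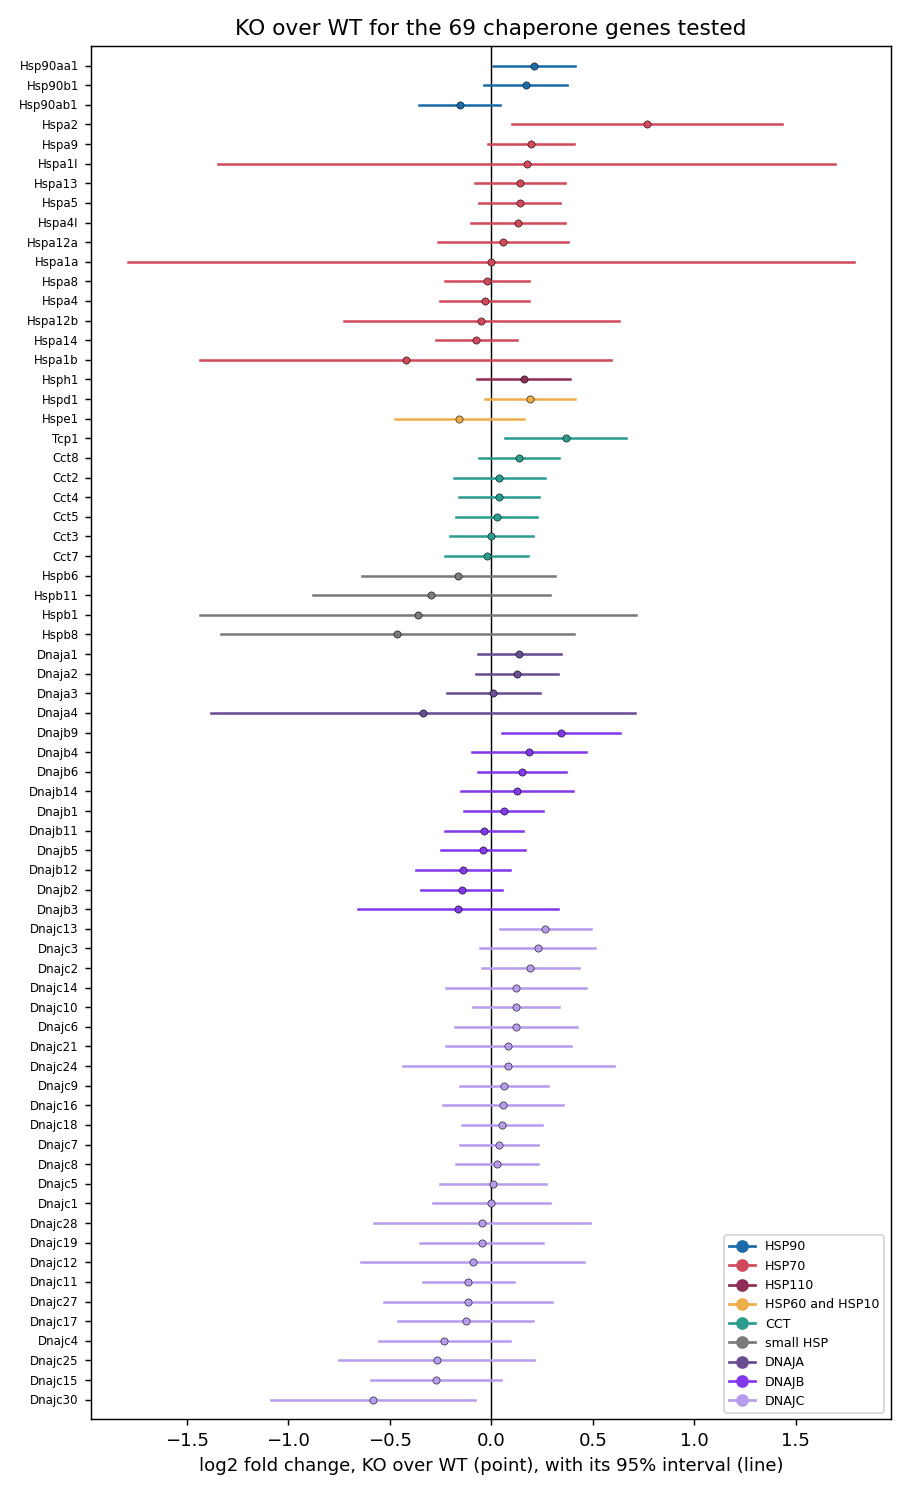
Log2 fold change KO over WT with its 95% interval for each tested chaperone gene, by family, from edgeR. Most intervals span 0 and no gene passed the threshold; Hspa2 (0.77) and Dnajc30 (-0.58) are the extremes.

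The J-domain genes, the largest family, centred on 0: 23 of 39 tested lay above it, with a median of 0.03. Of the J-domain genes at 100 CPM or more, Dnaja1, Dnaja2 and Dnajb6 lay farthest above 0. The others at that level were Dnajc9 (0.06), Dnajc7 (0.04), Dnajc8 (0.03), Dnajc5 (0.01), Dnajb5 (-0.04) and Dnajc11 (-0.11). Dnaja1 had 464 and 458 CPM in KO and 431 and 407 in WT (0.14), Dnaja2 163 and 158 against 152 and 142 (0.13), and Dnajb6, which keeps polyglutamine proteins from aggregating, 178 and 185 against 172 and 155 (0.15). These 3 genes had both KO libraries above both WT libraries (all genes 20.1%), with WT8 the lowest (all genes 34.0%). With the GC and length trend taken out, Dnaja1 was at -0.007, Dnaja2 at 0.02 and Dnajb6 at 0.16. Of the 39 J-domain genes tested, 13 (33.3%) had both KO libraries above. Both were below for 6 (15.4%, all genes 19.4%), and 20 overlapped. Dnajb1, the classic inducible HSP40, had 67.1 and 64.4 CPM against 63.8 and 62.1 (0.06). Dnajb4, its close relative, had 22.9 and 23.3 against 20.1 and 20.5 (0.19). Dnajb2, rich in neurons, went the other way, with 63.1 and 58.9 CPM in KO and 67.7 and 67.3 in WT (-0.14). Dnaja3 of the mitochondrion (0.01) and Dnajb5 (-0.04) were level. Dnaja4 (-0.33) had under 2 CPM in every library and shares 44.05% of its exon bases with Wdr61 on the opposite strand.

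Among the J-domain genes, 3 had the smallest p-values. Dnajb9 (chr12:44205559-44210326, minus strand), the ER protein ERdj4 that represses the stress sensor IRE1, was read 439 and 417 times in KO and 311 and 299 times in WT, or 23.95 and 22.8 CPM against 18.1 and 18.7 (23.4 ± 0.844 and 18.4 ± 0.456 SD, n = 2 each). Its libraries lay close within each genotype and apart between them (log2 fold change 0.34, SE 0.122, interval 0.054 to 0.634, adjusted p = 0.743 in edgeR's test). Dnajc13 (chr9:104151282-104262930, minus strand), the endosomal protein RME-8, had 48.1 and 51.0 CPM in KO against 42.9 and 39.5 in WT (0.27, interval 0.041 to 0.491). Dnajc30 (chr5:135064202-135065862, plus strand), a short gene for a mitochondrial inner-membrane protein, had 4.64 and 5.02 CPM in KO against 6.34 and 8.14 in WT (-0.58, interval -1.082 to -0.081). It shares 26.25% of its exon bases with Bud23 on the opposite strand, a gene with 1279 reads or more in each library against 85 to 130 for Dnajc30. With the trend of GC content and length taken out, the log2 fold changes were 0.23 for Dnajb9, 0.14 for Dnajc13 and -0.47 for Dnajc30. After these, apart from Dnajb2, came Dnajc15 (-0.27), a mitochondrial import regulator with its highest value, 29.1 CPM, in WT8, Dnajc3 (0.23), Dnajc2 (0.19), which acts at the ribosome, and Dnajc4 (-0.23). For all 4 of these genes, which were picked by their small p, the groups did not overlap (all genes 39.4%), and their intervals spanned 0.

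The members were also grouped by compartment, with no test between the groups. Of 9 ER genes 7 lay above 0 (all genes 48.9%) with a median of 0.14, 6 had both KO libraries above both WT libraries (all genes 20.1%) and 1, Dnajc25 (-0.27), had both below (19.4%). With the GC and length trend taken out, 2 of the 9 had both KO libraries above (all genes 13.9%) and 2 had both below (19.6%), and the median was 0.02. The 3 genes found with an ER stress element were all among those above, and Hspa13 had no window to search. These 3 were Hspa5 (0.14), Hsp90b1 (0.17) and Dnajc3 (0.23), the PERK inhibitor p58IPK. Dnajc3 was at 23.9 and 23.5 CPM in KO and 20.8 and 19.7 in WT. Dnajb11 (-0.04) and Dnajc1 (0.001), partners of Hspa5 in the same compartment, were level. Of the genes of ER folding and of the unfolded protein response outside the set, 8 of 20 lay above 0, with a median of -0.02, among them Sel1l (0.19) and Pdia4 (0.14) above and Atf4 (-0.19) and Calr (-0.03) below. With the GC and length trend taken out, Hspa5 and Hsp90b1 each stood at 0.05 and Dnajc3 at 0.10. Of 7 mitochondrial chaperone genes, a list that does not hold Dnajc30 (-0.58), 3 lay above 0 (median -0.05), and of 9 genes of mitochondrial folding and proteolysis outside the set 4 did (-0.01), with Lonp1 at -0.21, Clpp at -0.23 and Pmpca at 0.17. None of these genes passed the threshold (0 called in either list).

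Genes of the heat shock response lay on both sides of 0. Of 13 of its targets 5 lay above 0, with a median of -0.02, and 8 of the 13 overlapped between the genotypes (61.54%, all genes 60.56%). The genes found with a heat shock element were split, with Hspd1 (0.19), Hsph1 (0.16) and Dnajb6 (0.15) above 0 and Hspe1 (-0.16) below. Hspd1 and Hspe1 share 1 stretch. Hsp90aa1 (0.21) and Hspa8 (-0.02) had no window to search. Of 26 heat shock factors and co-chaperones, 8 lay above 0 (median -0.09), with Hsf2 at 0.32, Unc45a at -0.28 and the abundant Bag6 at -0.18. Prefoldin, which delivers actin and tubulin to CCT, had 1 of 6 genes above 0 (median -0.17), including Pfdn4 at -0.25, Pfdn6 at -0.21, Pfdn2 at -0.16 and Pfdn5 at -0.13. WT8 was the highest library for 5 of the 6 prefoldin genes (83.3%, all genes 32.8%). Immediate early genes, which respond to stimulation before new protein is made, were 4 of 11 above 0 (median -0.10), with Junb at 135 and 130 reads in KO against 202 and 162 in WT (-0.60), Ier2 at -0.33, Jun at -0.15 and Npas4 at 0.38. In each of these lists 0 genes were called by edgeR (all genes 0.00637%). At an unadjusted p under 0.05 in that test stood 2 of the 26 heat shock factors and co-chaperones (7.69%). So did 0 of the 6 prefoldin genes and 1 of the 11 immediate early genes (9.09%), against 4.7% of all genes.

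The authors' deposited tables compare 1 KO with 1 WT library each, KO2 with WT6 and KO4 with WT8, so their p-values compare libraries and not genotypes. Their mark of significance fell on 0 of the 74 chaperone genes in the first table (1.86% of all genes) and on 2 in the second (5.05%): Hspa2 at a fold of 2.16 (the authors' deposited table, adjusted p = 0.000645) and Hspb1 at 0.475 (adjusted p = 0.00539). In the first of the authors' deposited tables the same genes stood at folds of 1.41 and 1.504, so Hspb1 had opposite directions. In the authors' deposited table of KO2 and WT6, 25 chaperone genes had an adjusted p under 0.05, 18 of them with a fold above 1 (all genes 8.58% higher and 8.67% lower), and in that of KO4 and WT8 42 did, 33 of them with a fold above 1 (all genes 23.8% higher and 15.2% lower). The authors' deposited tables gave an adjusted p under 0.05 and a fold above 1 in both to 12 of the 74 genes (all genes 3.11%): Cct5, Cct8, Dnaja1, Dnaja2, Dnajb9, Dnajc2, Hsp90aa1, Hspa5, Hspa9, Hspd1, Hsph1 and Tcp1. They gave it with a fold under 1 in both to 1 gene, Hsp90ab1 (all genes 1.64%), and in opposite directions to 5 genes (all genes 6.53%), namely Dnajb5, Dnajc14, Dnajc5, Hspa4 and Hspe1. For Tcp1 the folds in the authors' deposited tables were 1.14 and 1.56, for Hsp90aa1 1.16 and 1.21, and for Hsp90ab1 0.917 and 0.925. The folds of Tcp1 thus differed between the tables, and those of the HSP90 genes were close. Of the 12 genes higher in both, all but Dnajb9 and Dnajc2 were at 100 CPM or more. Cct5 was among the 12 at folds of 1.043 and 1.047. The share of 3.11% is over genes of all levels, and none was formed over genes of like level.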

How the data were processed

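RNA-seq counts of 4 brain libraries (2 KO, 2 WT) were used, grouped by the genotype in the labels. The authors deposited 2 tables, each with raw read counts for 1 KO and 1 WT library, per the file headers. The deposited tables also hold a normalized value that is a CPM by its values, a linear fold (ratio) of KO over WT, its log2, and a p-value with its adjusted form, per the file headers. The authors' test was not given in the sources used here. Named in the submitters' processing notes, without roles, are the build mm9, HTSeq 0.6.0, TopHat2 2.0.12 and Bowtie2 2.2.3. Positions in the tables equal those of GENCODE M21 on GRCm38 for 91.2% of genes and for 66 of the 74 chaperone genes, so GRCm38 is used here.

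The counts of 19150 genes present in both tables were joined and analysed in R 4.3.3 with edgeR 4.0.16: TMM scaling, filterByExpr (15708 genes kept), genotype as the only term, the quasi-likelihood F-test and Benjamini-Hochberg adjustment over all genes tested, with a threshold of 0.05. CPM here carry the TMM scaling, and values per kb use the union of GENCODE M21 exons. Intervals are 95%. Alternatives were edgeR with RLE size factors, no filter, DESeq2 1.42.0, limma-voom 3.58.1, the deposited table as a block, each library left out in turn and, chosen after seeing the data, an offset for each library's trend with GC content and length (mgcv 1.9.3). The test was tried on simulated data with known changes. Genes named are all those of the HSP90, HSP70, HSP110, HSP60, CCT and small HSP families, the J-domain genes with the smallest p or the highest level per kb of each class, members marked in the deposited tables, and a few of each related list. Further J-domain genes, and ratios, were named after their values were seen. The members and lists were chosen with earlier results of these data known. Promoter windows are from RefSeq. Unused are genes listed in 1 table alone, and 1 gene of a related list is not reported here.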

Additional observations from a re-analysis of the deposited data

How the results depend on the processing

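The chaperone genes called remained 0 under every alternative run. Of all genes, 1 was called, 4 with DESeq2, 2 with the deposited table as a block, and between 0 and 104 when a library was left out (104 without WT8, 0 without WT6). The chaperone median of 0.029 was -0.0074 with the GC and length offset and 0.029 to 0.0499 with a library left out. Over 48 named genes and 10 alternatives, 446 log2 fold changes kept their direction and 34 reversed, all of genes that were not called. With the GC and length offset the reversed log2 fold changes were -0.0073 (Cct2), -0.074 (Cct3), -0.043 (Cct4), -0.0074 (Dnaja1), 0.012 (Dnajb5), -0.045 (Dnajc8), 0.069 (Hspa12b), 0.12 (Hspa1a) and -0.043 (Hspa4l). Cct3 was also -0.0026 with RLE factors, -0.00084 without the filter and -0.0038 with DESeq2. With limma-voom Hspa12b was 0.019 and Hspa1a 0.045, and Hspa1a was 0.011 with the table as a block. With a library left out the ranges were -0.032 to 0.12 (Cct2), -0.024 to 0.031 (Cct3), -0.047 to 0.0067 (Cct7), -0.036 to 0.061 (Dnaja3), -0.094 to 0.016 (Dnajb5), -0.0073 to 0.069 (Dnajc8), -0.018 to 0.15 (Dnajc9), -0.12 to 0.27 (Hspa12a), -0.41 to 0.43 (Hspa12b), -0.72 to 0.90 (Hspa1a), -0.47 to 1.47 (Hspa1l), -0.11 to 0.0499 (Hspa4), -0.062 to 0.027 (Hspa8), -0.84 to 0.33 (Hspb1) and -0.32 to 0.016 (Hspb6). The cause was not tested. Those fits hold 1 library of a genotype, which is assumed to vary like the other. No paired analysis was possible because the genotypes share no replicate number, and the deposited table used as a block is no such number. Depth limits the genes of few reads: 3 of the 69 had under 30 reads in every library.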
